A study of Bos taurus with 8 samples.

Results

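A set of 10 imprinted genes known from placenta was followed across bovine embryo-derived stem-like cells (eSLCs) of 3 embryo origins and somatic cells (SCs). The genes were chosen by symbol: PHLDA2, CDKN1C, ASCL2 and MEG3, which mammals express from the maternal copy, and MEST, NNAT, DLK1, PEG10, SGCE and SNRPN, which they express from the paternal copy. They were found on the array through the RefSeq record that each probe carries. All 10 genes were named by at least 1 of 25 probes, among 12602 named genes, and 9 of the 10 could be tested among 10956 tested genes. PEG10 could not. The array measures RNA of both copies together, so the copy in use was not measured here.

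An imprinted gene is expressed mainly from the copy inherited from one parent, because DNA methylation set in the egg or the sperm is kept on that copy. Many such genes act in the placenta, where genes expressed from the maternal copy tend to restrain growth and genes expressed from the paternal copy tend to promote it. Parthenogenetic embryos hold only maternal genomes, and their placental tissue is known to develop poorly.

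RNA of 8 samples of HanWoo (Korean native cattle) was hybridized with 1 dye, 1 array per sample. IVP-eSLCs came from embryos fertilized in vitro, as line I2 at passage 35 and line I9 at passage 30. NT-eSLCs came from embryos cloned by nuclear transfer of a somatic cell, as line N2 at passage 36 and line N7 at passage 30. PA-eSLCs came from oocytes activated without sperm, as line P1 at passage 31 and line P4 at passage 36. All 6 lines grew on inactivated murine STO feeder cells in a medium with inhibitors of MEK, the FGF receptor and GSK3, whereas the SCs, taken at passages 5 and 10, grew in serum medium without them. Origin, medium, feeder and passage therefore cannot be told apart in any comparison with SCs. Each condition had 2 arrays, which limits the precision of every value, and no line was hybridized more than once.

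Signals are background-subtracted intensities divided by the 75th percentile of their array, which is set to 1000. Values below a common floor of 13.3 were raised to it before the log2 step. Between 71.2% and 76.7% of probes were well above background on an array. Of the 2 slides, slide 1 held both IVP lines, N7 and the passage 5 SCs, and slide 2 both PA lines, N2 and the passage 10 SCs. No slide held both PA- and IVP-eSLCs, so a slide term between them rests on the NT lines and the SCs, which span both slides. The lines carried the RNA of trophoblast: the summed signal of 14 trophoblast markers was 564842 to 1757960 in the 6 lines and 17467 to 18176 in SCs. All 14 were well above background in every line, but so were 11 of them in SC P5 and 10 in SC P10. CDX2, ELF5 and PAG2 were not well above background in either SC array. The summed signal of 9 fibroblast markers was 4001 to 6903 in the lines and 510284 to 615851 in SCs. N7 stood apart, with a summed signal of 7 hypoblast and endoderm markers of 128840 against 3682 to 8932 in the other 5 lines. The same sum was 17598 in SC P5 and 15360 in SC P10. I9 and N2, although of different origin, were the closest pair of lines (Pearson's r 0.994 across tested genes, against 0.987 for the next pair of 15). That next pair was I2 and P4, also of different origin. I2 was closer to P1 (0.984) than to I9 (0.968), and P1 and P4 were at 0.981. In samples of many cells, fewer cells of a type and less RNA per cell cannot be told apart.

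The first comparison asked whether lines with 2 maternal genomes differed from lines that also hold a paternal genome. Of the maternally expressed members, PHLDA2, CDKN1C and ASCL2 had higher mean signals in PA-eSLCs than in the 4 biparental lines (the mean of IVP- and NT-eSLCs), and MEG3 had a lower one. None of the 4 passed the test. None of the 5 tested paternally expressed members was called lower in PA-eSLCs, and the means of SNRPN were nearly equal. No gene of the 10956 was called in this comparison (0% called), while 950 had an unadjusted p under 0.05. A gene was called when limma's Benjamini-Hochberg adjusted p was under 0.05 and its signal differed 2-fold or more.

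PHLDA2, a pleckstrin homology protein that restrains placental growth, had a signal of 62247 in I2, 3960 in I9, 4253 in N2, 4274 in N7, 141617 in P1 and 17974 in P4. I2 lay above P4, so the groups overlapped. The PA-eSLC mean was higher by 2.62 on the log2 scale (SE 1.26, 95% interval -0.45 to 5.70, adjusted p = 0.561). The 2 lines of an origin differed by 15.7-fold for IVP-eSLCs, by 1.01-fold for NT-eSLCs and by 7.88-fold for PA-eSLCs. The wider pair of IVP-eSLCs and that of PA-eSLCs thus exceeded the 6.17-fold difference of the means. Against N2, the only biparental line on the slide of both PA lines, the difference was 3.57.

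CDKN1C encodes p57, an inhibitor of cyclin-dependent kinases that stops the cell cycle. Its signal was 15727 in I2, 4780 in I9, 6501 in N2, 8312 in N7, 41185 in P1 and 18946 in P4. Both PA lines lay above all 4 biparental lines. It was the only tested member with this pattern, which 12% of all tested genes showed, and no member lay below all 4, as 4.78% of tested genes did. The difference was 1.81 on the log2 scale (SE 0.63, 95% interval 0.26 to 3.35, adjusted p = 0.560), 3.50-fold, and 2.10 against N2 on the same slide.

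ASCL2, a basic helix-loop-helix factor needed for trophoblast, had a signal of 9030 in I2, 3539 in I9, 2492 in N2, 7946 in N7, 10265 in P1 and 7729 in P4. P1 was highest, but P4 lay below I2 and N7. The difference was 0.83 on the log2 scale (SE 0.57, 95% interval -0.56 to 2.22, adjusted p = 0.629).

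MEG3, a long noncoding RNA of the locus that also holds DLK1, was faint. It had a signal of 173 in I2, 62.1 in I9, 70.6 in N2, 55.7 in N7 and 207 in P1, and was not well above background in P4. P1 was the highest of the 6 lines and P4 the lowest, and P1 was at least 15.5-fold above P4. The mean difference of -0.62 (SE 1.07, 95% interval -3.25 to 2.01, adjusted p = 0.856) averages these 2 opposite lines, and became 1.36 without P4.

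SNRPN encodes SmN, a core protein of spliceosomal ribonucleoproteins, and is a standard test of the paternal copy. By its brighter probe its signal was 4623 in I2, 6328 in I9, 5751 in N2, 5684 in N7, 4596 in P1 and 6707 in P4. P1 was the lowest and P4 the highest line, with the biparental lines between them. The difference was -0.0024 on the log2 scale (SE 0.23, 95% interval -0.56 to 0.55, adjusted p = 1). The interval leaves room for a difference in either direction, but a loss of the signal lies far outside it. The second probe, A_73_P342416, read 546 in P1 and 679 in P4, within its range of 593 to 785 in the biparental lines for P4 and just below it for P1. SNURF, which shares its transcript with SNRPN, was measured by a probe of its own at 386 in P1 and 415 in P4 and at 387 to 500 in the biparental lines. SmN is close in sequence to the product of SNRPB, and whether the SNRPN probes tell them apart was not tested.

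NNAT, a small membrane protein of the endoplasmic reticulum, had a signal of 110 in I2, 143 in I9, 155 in N2, 491 in N7, 1002 in P1 and 93.6 in P4. The 2 PA lines were the highest and the lowest of the 6, 10.7-fold apart. The difference of 0.72 (SE 0.97, adjusted p = 0.810) turned to -0.99 without P1. The other 2 NNAT probes, at lower signals, also had P1 highest and N7 next.

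SGCE, a sarcoglycan of the dystrophin complex, was near the floor in all 6 lines. Its brightest probe read 35.8 in I9, 20.7 in N2, 16.9 in N7 and 35.7 in P1 and was not well above background in I2 and P4. The difference of 0.11 (SE 0.53, adjusted p = 0.970) rests on signals near the floor, which I9, the brightest line, exceeded by 2.70-fold. PEG10, a retrotransposon-derived gene beside SGCE, has 3 probes. They were not well above background on any array, except A_73_P468253 in I2, whose signal of 11.2 was below the common floor. PEG10 was therefore left untested, and the probes give only a bound for it.

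**Figure D1:**
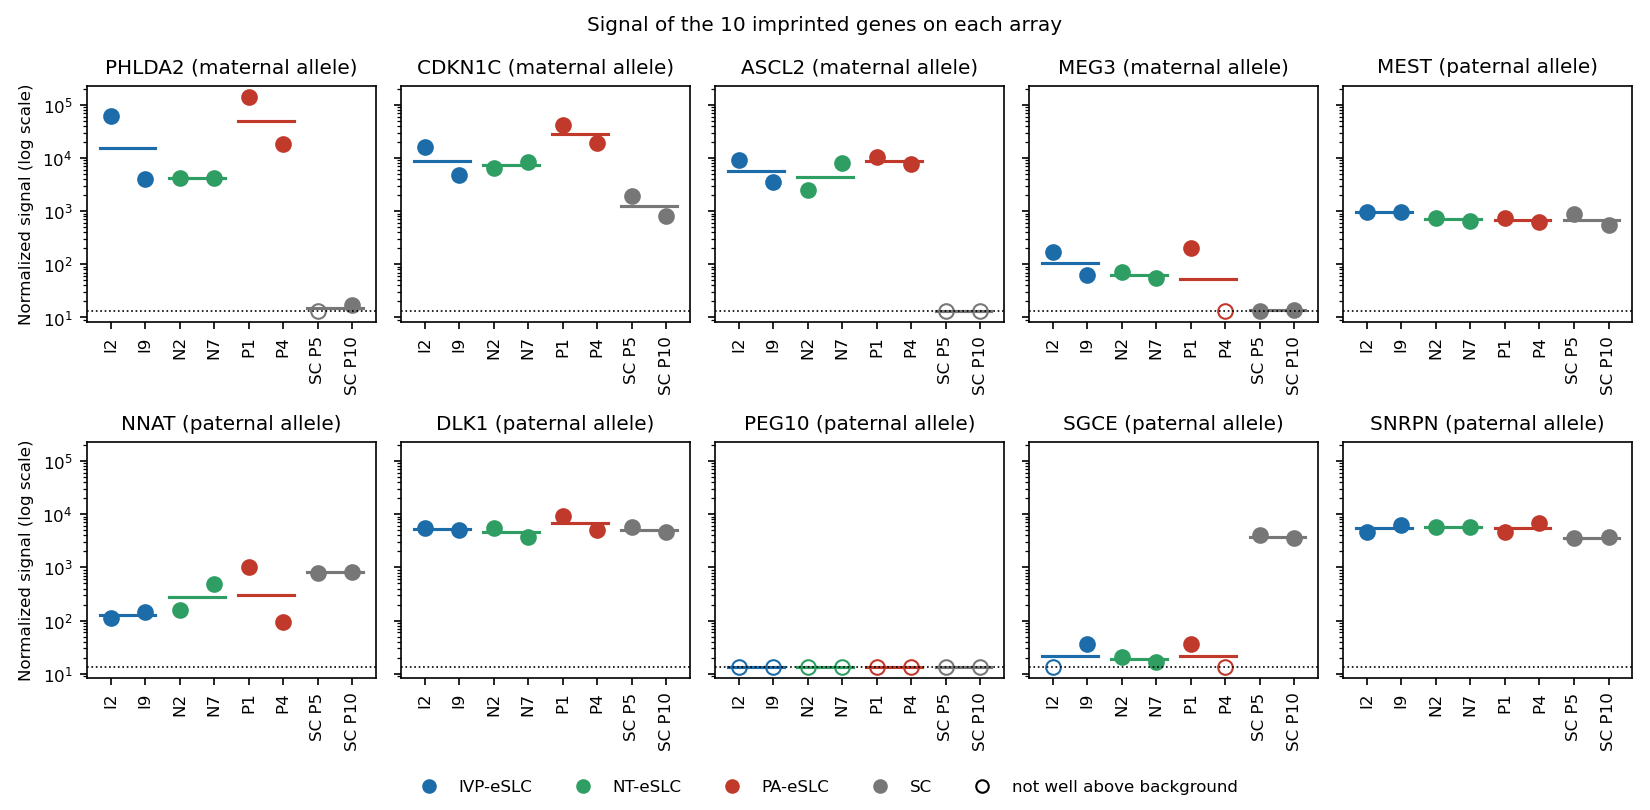
Normalized signal (log axis, 75th percentile of each array at 1000) of the brightest probe of each of the 10 genes on the 8 arrays. Points are arrays coloured by condition, open points were not well above background, short lines are means of log2 values over 2 arrays, and the dotted line is the floor of 13.3. PHLDA2 spreads from 3960 to 141617 among the 6 lines, SNRPN from 4596 to 6707, and SGCE is bright only in the 2 SC arrays.

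MEST and DLK1 were each covered by 5 probes that did not tell the same story. MEST, a protein of the hydrolase fold family, was read by its brightest probe, A_73_P312451, at 951 in I2, 954 in I9, 730 in N2, 665 in N7, 730 in P1 and 631 in P4. This probe was nearly flat, and the difference was -0.26 (SE 0.23, 95% interval -0.83 to 0.31, adjusted p = 0.698). Probe A_73_P102641 instead read 198 in I9 and 151 in N2 against 32.3 to 61.4 in the other 4 lines. Probes A_73_100042 and A_73_P329921 were also highest in I9 and N2, the pair of lines closest to each other overall. Their PA to biparental differences were -0.96 (SE 0.86) and -0.78 (SE 0.62), and that of A_73_P102641 was -0.90 (SE 0.87), none of them called. The fifth probe, A_73_P102636, was not well above background in any line.

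DLK1 encodes a transmembrane protein with EGF-like repeats, related to Notch ligands. Its brightest probe, A_73_110424, read 5606 in I2, 5076 in I9, 5554 in N2, 3707 in N7, 9202 in P1 and 4980 in P4, with a difference of 0.46 (SE 0.31, 95% interval -0.31 to 1.23, adjusted p = 0.626). The other 4 probes ran over a wider range. Probe A_73_P069591 read 1341 in I2, 984 in I9, 1542 in N2, 40.6 in N7, 5180 in P1 and 1341 in P4, so P1 was 128-fold above N7. P1 was highest by 4 of the 5 probes and N2 by A_73_P399776, at 639. N7, the line with the highest summed signal of hypoblast and endoderm markers, was lowest by all 5. The part of such cells in its DLK1 signal was not tested. The PA to biparental differences of the 4 dimmer probes ran from 0.74 to 2.30, none of them called.

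**Figure D2:**
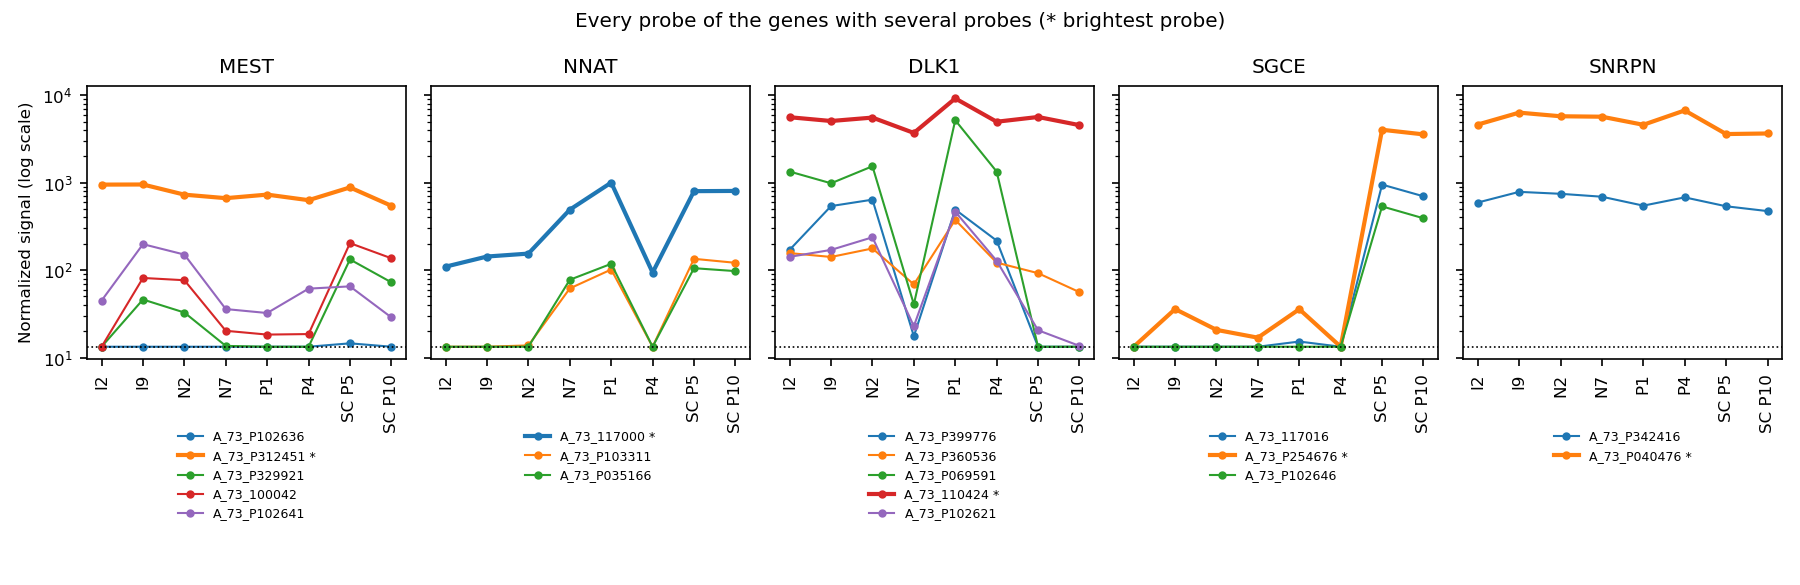
Normalized signal (log axis) of every probe of the 5 tested genes with several probes, over the 8 arrays, IVP lines first, then NT, PA and SCs. The thick line is the brightest probe of a gene and the dotted line the floor of 13.3. The brightest probes of DLK1 and MEST vary less than most of their dimmer probes, and all 3 NNAT probes have P1 as their highest line.

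Taken by expressed copy, the 4 maternally expressed members had a median difference of 1.32 between PA-eSLCs and biparental lines, with 3 of 4 higher in PA-eSLCs. The 5 paternally expressed members had a median of 0.11, with 3 of 5 higher. The median of all tested genes was 0.07. These medians rest on few genes, chosen with earlier results of these data known, and P1 set much of them. P1 was the highest of the 6 lines for 6 of 9 members, of both copies: PHLDA2, CDKN1C, ASCL2, MEG3, NNAT and DLK1. It was also the highest line for 24.8% of all tested genes, the largest share of any line. Its median difference from the biparental mean was 1.86 over the maternal and 0.82 over the paternal members. P4 had a median of 0.88 over the maternal and -0.37 over the paternal members, and was the lowest line for MEG3, MEST, NNAT and SGCE. With the slide as a block, no gene was called (363 with an unadjusted p under 0.05). The differences were then 2.50 for PHLDA2, 2.42 for CDKN1C, 1.46 for ASCL2, 1.34 for NNAT and -0.05 for MEST. The 2 PA lines lay on the same side of the biparental mean for 5 of the 9 members, namely PHLDA2, CDKN1C, ASCL2, DLK1 and MEST.

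**Figure D3:**
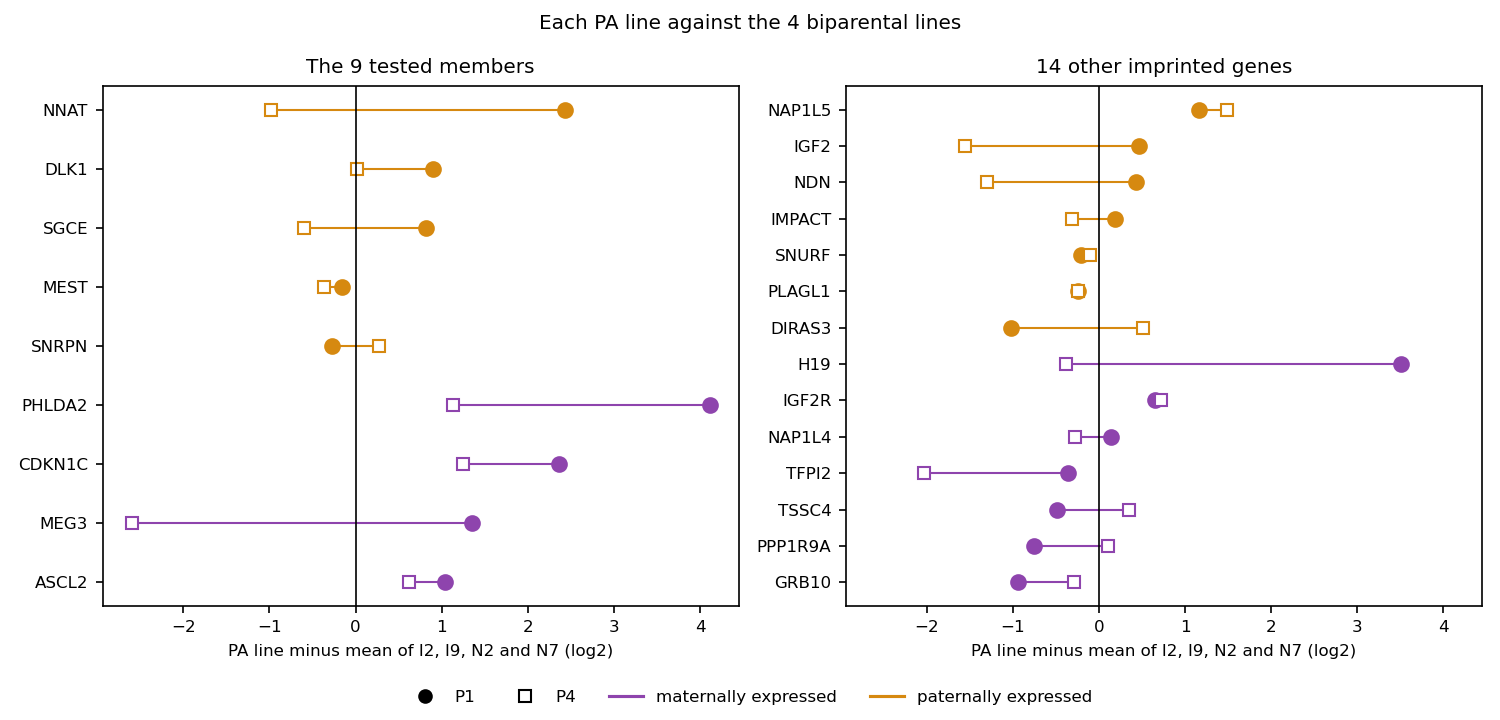
Difference of each PA line from the mean of the 4 biparental lines (log2, x axis) for the 9 tested members and for 14 other imprinted genes. Filled circles are P1, open squares P4, and colour gives the expressed copy. PHLDA2 and CDKN1C lie above 0 in both lines, at 4.11 and 1.14 and at 2.37 and 1.25, while MEG3 and NNAT fall on opposite sides.

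Set against 1 origin at a time, the members again gave no call. Against NT-eSLCs, PHLDA2 was higher in both PA lines by 3.56 on the log2 scale (SE 1.45, 95% interval 0.01 to 7.12, adjusted p = 0.503) and CDKN1C by 1.93 (SE 0.73, 95% interval 0.14 to 3.71, adjusted p = 0.502). These 2 of 9 members had every PA array above every NT array, as had 24.2% of all tested genes. Against IVP-eSLCs this held only for CDKN1C, at 1.69 (SE 0.73, adjusted p = 0.852), among 21.8% of all tested genes. In the same comparison MEST lay below in both PA lines, at -0.49 (SE 0.27, adjusted p = 0.852), as did 13.3% of tested genes. With the slide as a block these 2 differences from IVP-eSLCs were 2.51 and -0.21, and again no gene was called. These comparisons share the PA arrays.

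NT- and IVP-eSLCs, which both hold 2 parental genomes, were compared to ask whether cloning changed the members. No gene was called (0% called, 307 with an unadjusted p under 0.05). All 4 maternally expressed members had lower means in NT-eSLCs, with a median of -0.54, from -1.88 (SE 1.45) for PHLDA2 to -0.24 (SE 0.73) for CDKN1C. NNAT lay higher in both NT lines, at 1.14 (SE 1.12), among 9.75% of tested genes with this pattern. MEST lay lower in both, at -0.45 (SE 0.27), among 13.5%. The adjusted p was 1 for all 9 members. The lower means rested on I2: without it the differences were 0.11 for PHLDA2, 0.62 for CDKN1C, 0.33 for ASCL2 and 0.01 for MEG3.

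The last comparisons set the embryo lines against SCs. PHLDA2, CDKN1C and ASCL2, all maternally expressed, were higher in eSLCs, and SGCE, a paternally expressed gene, was lower. The other 5 tested members did not pass the test. The 4 calls among 9 members stand beside 35.4% of all tested genes called in the same comparison, with 3 higher beside 19.7% and 1 lower beside 15.7%, so the members were called at about the rate of all genes. By copy, 3 of 4 maternal members were called higher and 1 of 5 paternal members was called lower. The lines and SCs also differed in every trophoblast and fibroblast sum given above, and the part of cell type in these differences was not tested.

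PHLDA2 was not well above background in SC P5 and read 16.9 in SC P10, near the floor, against at least 3960 in every line. With SC P5 at the floor, so that 1 of 2 SC arrays measured it, its difference was 9.97 on the log2 scale (SE 1.18, adjusted p = 0.0013). ASCL2 was not well above background in either SC array, so its signal in the lines was at least 720-fold higher (adjusted p = 9.3e-05). PHLDA2 and ASCL2 entered the test through the lines alone. Both SC values of ASCL2 were set to the floor, so its p-value depends on the floor. CDKN1C was measurable in SCs, at 1961 in SC P5 and 801 in SC P10, and all 6 lines lay above them, as for 34% of all tested genes. Its difference was 3.27 (SE 0.59, adjusted p = 0.0063), 9.67-fold, and it was 2.12 within slide 1 and 4.42 within slide 2. Without SC P10 it fell to 2.63 and lost its call (adjusted p = 0.0835).

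SGCE ran the other way. Its brightest probe read 4030 in SC P5 and 3569 in SC P10 against at most 35.8 in any line, with all lines below SCs as for 23.6% of tested genes, and a difference of -7.52 (SE 0.50, adjusted p = 0.00014) with I2 and P4 at the floor. The other 2 probes were also called lower, and A_73_P102646, not well above background in any line, was at least 45.7-fold higher in SCs. These 2 probes entered the test through SCs alone. PEG10, its neighbour in the genome, remained unmeasured in SCs too.

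MEG3 read 10.8 in SC P5, below the floor of 13.3, and 13.8 in SC P10, just above it. Its difference of 2.37 (SE 1.01, adjusted p = 0.103) missed the threshold. It passed when P1 was left out (1.71, adjusted p = 0.0413) and when P4 was left out (3.03, adjusted p = 0.0121). NNAT read 800 in SC P5 and 805 in SC P10, above every line but P1. Its difference of -1.87 (SE 0.91, adjusted p = 0.142) became -2.44 (adjusted p = 0.0220) without P1. SNRPN was higher in all 6 lines than in the 2 SC arrays, at 3600 and 3655, by 0.62 (SE 0.21, adjusted p = 0.0572), 1.53-fold.

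For DLK1 and MEST the result depended on the probe. The brightest DLK1 probe read 5643 in SC P5 and 4553 in SC P10, as in the lines (0.11, SE 0.30, adjusted p = 0.778). The probes A_73_P069591 and A_73_P399776 were not well above background in SCs, and the signal of the first was at least 108-fold higher in the lines (adjusted p = 0.0164 over all tested probes, of which 17% were called higher and 16.4% lower). Both probes entered the test through the lines alone, with SCs at the floor. A_73_P102621 was also called higher, by 3.08 (SE 0.96, adjusted p = 0.0463). MEST showed the reverse: its brightest probe did not differ beyond its spread (0.14, SE 0.22, adjusted p = 0.613), while A_73_P329921 differed by -2.36 (SE 0.59, adjusted p = 0.0226) and A_73_100042 by -2.53 (SE 0.81, adjusted p = 0.0499). With the probes of a gene averaged, DLK1 was called higher (2.88, adjusted p = 0.0349) and the difference of MEST turned to -0.83 (adjusted p = 0.179). Which transcript each probe reads was not tested.

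**Figure D4:**
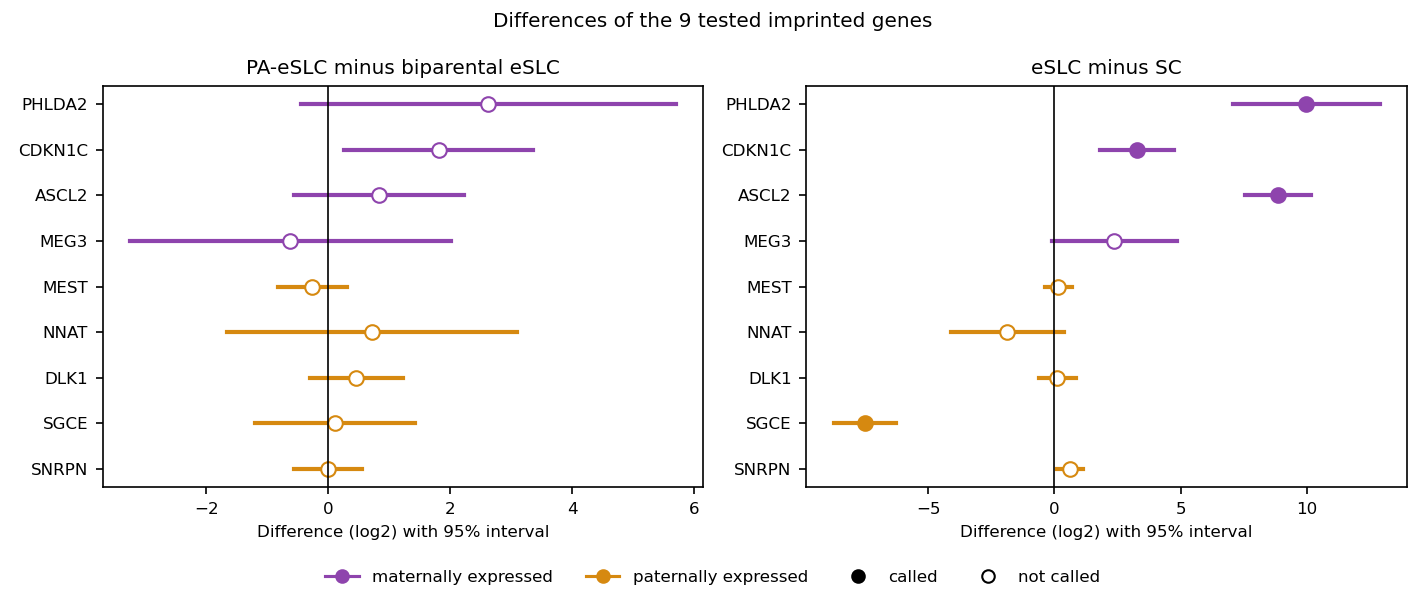
Difference of group means on the log2 scale (x axis) with its 95% interval for the 9 tested members, for PA-eSLCs minus biparental lines on the left and all eSLCs minus SCs on the right. Filled points were called, and colour gives the expressed copy. On the left no point is filled and only the interval of CDKN1C, from 0.26 to 3.35, leaves out 0. On the right PHLDA2, CDKN1C and ASCL2 lie far above 0 and SGCE at -7.52.

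The calls against SCs were then taken by origin. PHLDA2, CDKN1C and ASCL2 were called higher and SGCE lower in each of IVP-, NT- and PA-eSLCs, beside 32.3%, 29.8% and 35.3% of all tested genes called. Higher calls made up 17.7%, 15.8% and 20.3% of tested genes, and lower calls 14.6%, 13.9% and 14.9%. CDKN1C was higher by 2.79 (SE 0.73, adjusted p = 0.0285) in IVP-eSLCs, by 2.55 (SE 0.73, adjusted p = 0.0404) in NT-eSLCs and by 4.48 (SE 0.73, adjusted p = 0.0052) in PA-eSLCs. PHLDA2 was higher by 10.03, 8.15 and 11.72 (SE 1.45 each). The 3 comparisons share the SC arrays. For NT-eSLCs the calls of PHLDA2 and CDKN1C were lost without N2 (adjusted p = 0.0529 and 0.120), without SC P5 (0.0850 and 0.0945) or without SC P10 (0.0713 and 0.219), and that of CDKN1C also without N7 (0.135), P1 (0.0654) or P4 (0.0763). For IVP-eSLCs the call of CDKN1C was lost without I2 (0.134), N2 (0.0637), P4 (0.0590), SC P5 (0.0731) or SC P10 (0.177), and for PA-eSLCs without SC P10 (0.0520). With the slide as a block, CDKN1C was no longer called in IVP-eSLCs (2.38, adjusted p = 0.0809) or in NT-eSLCs (adjusted p = 0.0503). Over 23 alternatives, leaving out an array included, CDKN1C lost its call 12 times for IVP-eSLCs, 15 times for NT-eSLCs, 3 times for PA-eSLCs and 3 times for all eSLCs.

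Of 25 other imprinted genes listed with the members, 17 were named by a probe and 14 tested. Between PA-eSLCs and biparental lines none was called. The 7 maternally expressed ones had a median difference of -0.07, with 2 higher, and the 7 paternally expressed ones of -0.24, with 1 higher. The medians of the maternal members and of the other maternal genes were 1.32 and -0.07. Both lists were chosen with earlier results of these data known, so no conclusion is drawn from this difference. H19, a long noncoding RNA expressed from the maternal copy, followed P1 as MEG3 did, with 775 in P1, 52.5 in P4 and 25.3 to 164 in the biparental lines. IGF2, the growth factor gene beside it that is expressed from the paternal copy, was at 730 in P1, above I2, I9 and N2 but below the 2672 of N7, and at 180 in P4, the lowest line. NDN, another paternally expressed gene, was at 326 in P1 and 98.2 in P4, between the 48.1 of I9 and the 1465 of N7. The probes of IGF2, NDN and SNRPN, paternally expressed genes, thus gave signal in lines without a paternal genome. Those of PLAGL1 and PEG10 were not well above background in P1 or P4, nor in most biparental lines. Whether RNA of the murine feeder cells, or of SNRPB for SNRPN, added to these signals was not tested.

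Against SCs, 3 of the 14 were called, all lower in eSLCs, beside 15.7% of all tested genes called lower and 35.4% called in either direction. PLAGL1, a zinc finger factor, was tested through its signals of 1289 and 1328 in SCs and was well above background only in N2 among the lines, at 25.8. Its difference of -6.46 (SE 0.26) therefore depends on the floor. TFPI2, a protease inhibitor expressed from the maternal copy, differed by -6.21 (SE 0.83), and DIRAS3, a small GTPase, by -2.82 (SE 0.72). Of 10 genes that set or keep imprints, 8 were named and 7 tested. Of these, 2 were called higher in eSLCs than in SCs, beside 19.7% of all tested genes. The methyltransferase gene DNMT3A read 32002 in P1 and 33620 in P4, 35199 in I2 and 23990 in N7, but 5224 in I9 and 4271 in N2, against 898 and 1198 in SCs. DNMT3B was likewise highest in I2, at 751, and lowest in I9 and N2, at 126 and 100.1, and was not well above background in SCs. I9 and N2, low for both and the closest pair of lines, were also the 2 lowest lines for ASCL2, PHLDA2 and CDKN1C. The signal of PHLDA2 was 4274 in N7 and 4253 in N2. How many of all tested genes had these 2 lines lowest was not counted, and a link of DNMT3A or DNMT3B to the members was not tested.

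Position and pattern were taken last. In the ARS-UCD2.0 assembly, PHLDA2 and CDKN1C are both next to SLC22A18, MEG3 is next to DLK1 and SGCE next to PEG10, whereas the arrays were designed on an earlier build. NAP1L4, on the other side of PHLDA2, ran from 7205 to 10352 among the lines and did not share its spread. TSPAN32, next to ASCL2, read 8941 in I2, 613 in I9, 438 in N2, 1817 in N7, 11183 in P1 and 3565 in P4. It had the same highest and lowest lines as ASCL2, and its difference between PA-eSLCs and biparental lines was 2.13 (adjusted p = 0.582). SNURF, beside SNRPN, was higher in eSLCs than in SCs by 0.59 (adjusted p = 0.0341), below the 2-fold limit.

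For each member the tested genes with the most similar course over the 8 arrays were found by the root mean square difference of centred log2 signals. For ASCL2 these were C6H4orf19 at 0.45, PLCXD1 at 0.45 and CYP11A1, the first enzyme of steroid hormone synthesis, at 0.48, against a median of 3.80 over all tested genes. For CDKN1C they were MLXIPL, ARRDC3 and NXNL2 at 0.44 to 0.46, against a median of 1.68. For PHLDA2 the closest, PRPH, was at 0.91 against a median of 4.58. For SGCE they were LOC781494, CDKN2B, an inhibitor of cyclin-dependent kinases, and ADIRF, at 0.51 to 0.52 against 3.41. For MEG3 the closest was CRYBA2 at 0.55 against 1.53, and for NNAT it was CBR1 at 0.70 against 1.48. The nearly flat genes had near neighbours at 0.05 for MEST (ADRB1), 0.10 for DLK1 (FAM120B) and 0.09 for SNRPN (SPCS1).

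The authors' own normalized values were set beside the scanner signal, because they changed the result between origins. By those values, left on their own scale, PHLDA2, ASCL2 and MEG3 were called higher and SNRPN lower in PA-eSLCs than in biparental lines. The differences were 1.77 (adjusted p = 0.0027), 1.23 (adjusted p = 0.0076), 1.58 (adjusted p = 0.0039) and -1.45 (adjusted p = 0.0049). These 4 of 9 members stand beside 2.58% of all tested genes called on that scale, where the median of all genes was -0.47. Scaled to the 75th percentile of each array, the same values gave no call among the members and 0.128% of all genes. The study reports the same directions for PHLDA2, ASCL2, MEG3 and SNRPN in PA- against IVP-eSLCs. It states that real-time PCR also bore out its imprinted genes, and those PCR data were not examined here.

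For these members the authors' values of the 2 arrays of a condition were nearly the same where the scanner signals were not. For PHLDA2 they were 1956 in I2 and 1902 in I9, whose scanner signals differed by 15.7-fold, 5143 in N2 and 5088 in N7, and 10903 in P1 and 10507 in P4. For MEG3 they were 1139 in P1 and 1096 in P4, whose scanner signals differed by at least 15.5-fold. For SNRPN they were 4940 in P1 and 5015 in P4 and from 12236 to 15380 in the biparental lines. In all, 6 of 25 member probes had pairs within 5% in all 4 conditions by the authors' values, 1 each for PHLDA2, ASCL2, MEG3, MEST, NNAT and SNRPN. By the scanner signals, the widest pair of these 6 probes ran from 1.46- to 15.7-fold. Over all 43637 probes, 23.4% of the authors' values agreed within 3% between SC P5 and SC P10. Of the scanner signals before scaling, 9.31% did so. Those signals had 75th percentiles of 3089 in SC P5 and 1610 in SC P10, and the authors' values 2727 and 1729. The 2 shares therefore also reflect the scale of each array and are not set against each other. The study's methods name GeneSpring GX and ratios of averaged channel intensities. How a single array was scaled is not given in the sources used here, and how these values arose was not tested.

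**Figure D5:**
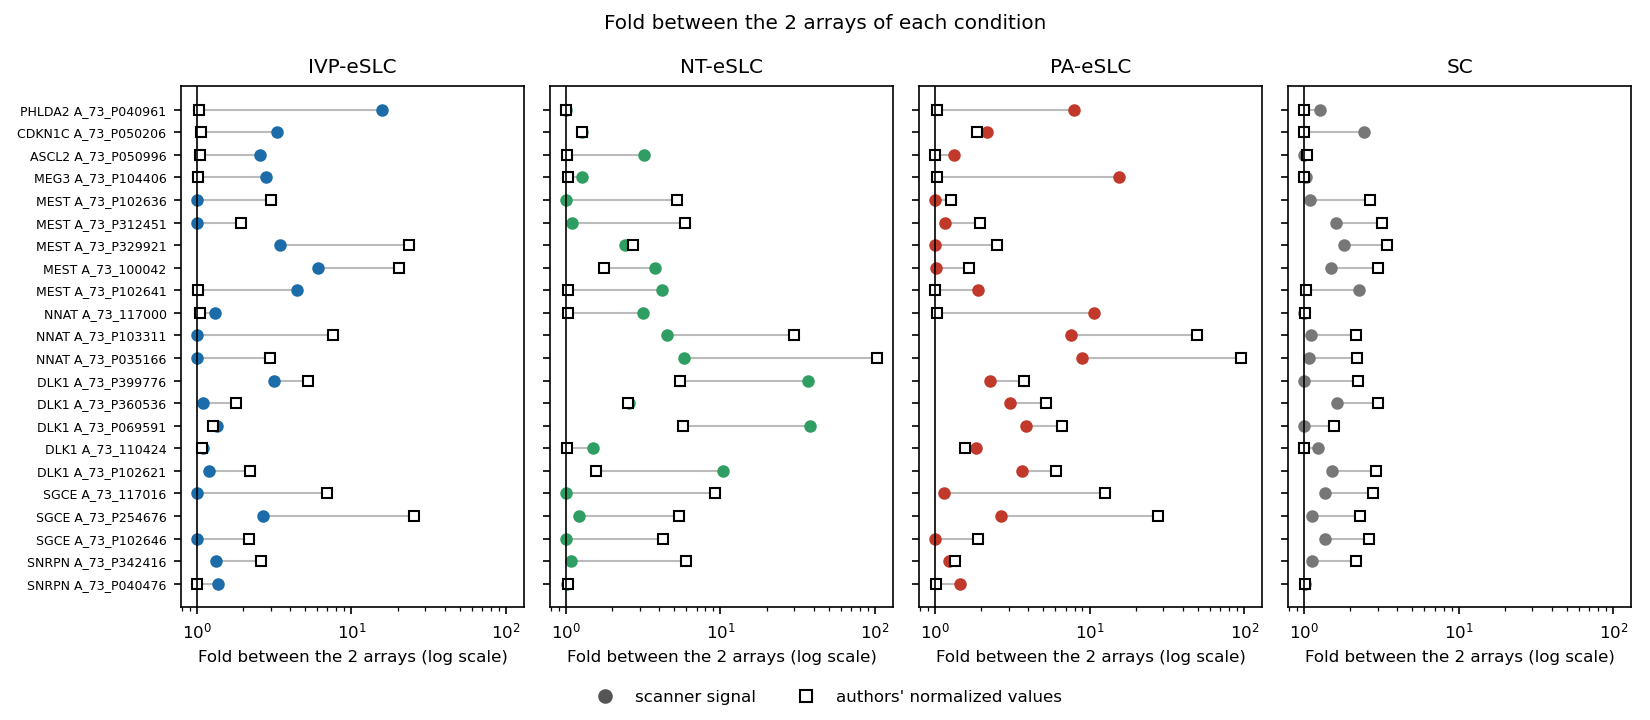
Fold between the 2 arrays of a condition (x axis, log scale) for each of the 22 probes of the 9 tested members, in 4 panels by condition. Filled circles are scanner signals raised to the floor and open squares the authors' normalized values. For PHLDA2, ASCL2, MEG3 and 1 probe each of MEST, NNAT and SNRPN the squares lie within 5% of 1 in all panels, while the circles reach 15.7-fold.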

How the data were processed

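The authors hybridized 8 samples to Agilent Bovine 44K arrays and read them with Feature Extraction version 11.5.1.1. Deposited were linear signal intensities of every spot, not normalized between arrays, and a table of linear intensities from GeneSpring GX. The background-subtracted signal was used. The processed signal was not, because its Spearman correlation with it was 0.161 to 0.216 in 6 files and 0.971 to 0.973 in 2. Control and outlier spots (1 to 11 per array) were left out and none was saturated, which left 43637 probes, of which 26731 were named through RefSeq. Signals were scaled to the 75th percentile (1191 to 4086 scanner units), floored at 13.3 and taken to log2. A gene was tested by its brightest probe if well above background on both arrays of a condition. limma version 3.58.1 in R version 4.3.3 fitted all 8 arrays with 1 mean per condition, and probes were also fitted singly. The step was tested on simulated data. Nothing states that samples came from separate animals, so p-values measure the spread between these samples. The 10 members and the other lists were chosen with earlier results of these data known. All members were named, with each tested member's closest genes and neighbours. Bounds set the brighter mean against the higher of a dim probe's signal and its array's lowest well above background.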

Additional observations from a re-analysis of the deposited data

Results flagged for a closer look

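Among the 6 eSLC lines, 1 line lay far from the other 5 by 3 of 20 member probes. For a single probe chance gives this about 1 time in 20. Several probes read the same gene on the same arrays, so the count cannot be set against that rate. The first 2 of the probes were for DLK1 and had N7 lowest. A_73_P399776 read 17.5 in N7 against 171 to 639 in the other lines, and the gap to the nearest line was 0.633 of the whole log2 range. A_73_P069591 read 40.6 in N7 against 984 to 5180, a gap of 0.658 of the range. N7 was also the line with the highest hypoblast and endoderm marker sum. The third was the SGCE probe A_73_117016, which read 15.2 in P1 and was below the floor in the other 5 lines, a gap of 1, the whole range. With 5 lines at the floor any signal above it gives this value, and without such probes 2 of 19 were singled out. None of the brightest probes of the 9 tested members was singled out in this way.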

How the results depend on the processing

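The number of members called was recomputed under 22 alternatives set at the start and 2 added after seeing the data (normexp on the median signal and every probe on its own). Between PA-eSLCs and biparental lines 0 members were called, except 4 by the authors' values without rescaling and 1, CDKN1C, by the unadjusted methods' t-test. By the authors' values without rescaling, 4 members were called in PA- against IVP-eSLCs (1.46% of all genes), 5 against NT-eSLCs (5.49%) and 1 between NT- and IVP-eSLCs (4.03%), and 7 for PA-eSLCs (30.6%) and 7 for all eSLCs (32.3%) against SCs. On that scale 5 differences turned sign and were called, namely PHLDA2 between NT- and IVP-eSLCs (1.41), MEG3 in PA-eSLCs against biparental, IVP and NT lines (1.58, 1.39 and 1.77) and SNRPN against IVP lines (-1.30). The cause was not tested. Against SCs, where 4 members were called in each comparison, the processed signal gave 0 for IVP-, 0 for NT-, 1 for PA- and 2 for all eSLCs, beside 2.57%, 2.67%, 2.27% and 4.57% of all genes, so calls fell over all genes. A filter on all 8 arrays, which leaves out genes dim on any array, left 5 members tested. It gave 1 call in each of these 4 comparisons, beside 31.3%, 28.9%, 34.8% and 33.9% of all genes. The methods' t-test after Benjamini-Hochberg adjustment gave 0 for IVP-, 2 for NT- and 1 for PA-eSLCs, beside 7.84%, 2.7% and 15.1% of all genes. The SC arrays as 1 sample gave 2 for NT-eSLCs, beside 16.5%. Leaving out 1 array left only 1 array in its condition, so the numbers of members called in those fits are not listed. Of 1623 single member values, 1519 kept their side of the threshold, 53 lost and 46 gained a call in the same direction. No paired analysis was possible because the labels give all 8 samples the same replicate number, so the groups share fewer than 2 numbers, and the numbers used here only name arrays. The planned normexp on the mean signal was not run, because the columns used here do not include it. The 2 arrays per condition, and signals near the floor for SGCE, MEG3 and PEG10, limit these results.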
